A study of Mus musculus with 7 samples.

Results

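Osteoclasts are the multinucleated cells that resorb bone and calcified cartilage, and they form when precursors of the macrophage lineage fuse. The signal that drives this step is RANKL (encoded by Tnfsf11), a ligand made by osteoblast-lineage cells, osteocytes and chondrocytes, which binds its receptor RANK (Tnfrsf11a) on the precursor. Osteoprotegerin (Tnfrsf11b), a soluble decoy receptor, binds RANKL and keeps it from RANK. Cathepsin K and tartrate-resistant acid phosphatase are enzymes of the mature cell, and osteoclasts under the articular surface take part in the remodelling of subchondral bone in osteoarthritis.

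The levels of 10 genes of this system were examined in the RNA-Seq data, chosen by exact gene name out of 55401 genes in the table. Of these, 7 mark the osteoclast (Ctsk, Acp5, Dcstamp, Ocstamp, Atp6v0d2, Calcr and Oscar) and 3 form the RANKL axis (Tnfsf11, Tnfrsf11a and Tnfrsf11b). All 10 are annotated as protein-coding, and all 10 passed the filter on low values, more than 1 CPM (counts scaled to a common library size) in at least 2 samples, as did 16429 genes in all. RNA came from knee cartilage, which the study's methods describe as taken with subchondral bone, of male C57BL/6J mice operated at 10 weeks of age by destabilization of the medial meniscus (DMM) of the right knee and killed 2 weeks later. The labels give 4 wild-type (WT) samples and 3 samples of Trpc1-/- mice, in which the calcium channel gene Trpc1 is disrupted in every cell. Each sample pooled 2 to 3 knees by the study's methods, so that an n of 4 or 3 counts pools, while each label carries a single mouse number. Both groups had undergone DMM, and unoperated or sham-operated knees were not analysed here. The comparison asks whether osteoclast genes and the signals that control them differ between the genotypes early after joint destabilization.

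Total counts ranged from 52142451 in WT replicate 1 to 118254070, and WT replicate 1 also had the lowest mean correlation with the other samples over all tested genes (0.947, against 0.973 to 0.980), so results are given without it where it matters. The targeted gene was lower under the Trpc1-/- label. Trpc1 averaged 4.62 ± 0.23 CPM over the 4 WT samples (mean ± SD here and below) and 3.39 ± 0.38 CPM over the 3 Trpc1-/- samples. Its groups did not overlap, which held for 13.6% of all tested genes. The counts cover the whole gene, of which the targeted allele lacks a single exon. All fold changes below are Trpc1-/- against WT on the log2 scale (logFC), fitted with edgeR's quasi-likelihood test on counts normalized by TMM, with P values adjusted by the Benjamini-Hochberg method over the 16429 genes. The logFC of Trpc1 was -0.44 (adjusted P = 0.407 in edgeR and 0.05001 in DESeq2), which did not pass the threshold of 0.05 in either tool.

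The members ranged from among the most abundant of the tested genes to among the lowest. Per length of transcript, in TPM (CPM divided by exon length and rescaled within the sample), Ctsk, the collagen-degrading protease cathepsin K, had a mean of 222 ± 78.2 TPM in WT (n = 4) and 207 ± 63.8 TPM in Trpc1-/- samples (n = 3), at percentile 98.6 of the tested genes. Acp5, which encodes tartrate-resistant acid phosphatase, followed with 156 ± 67.6 TPM in WT and 130 ± 34.5 TPM in Trpc1-/- samples. Ctsk lay above Acp5 in 7 of 7 samples, by 1.32 to 1.75 times. Atp6v0d2, a proton pump subunit needed for fusion of precursors, and Tnfrsf11b were next on the TPM scale, with 17.4 ± 6.63 and 16.2 ± 2.86 TPM in WT, and their order was the stated one in only 5 of 7 samples. Tnfrsf11a, Tnfsf11, Oscar and Dcstamp formed a group between 2.03 and 2.64 TPM in the WT mean, within which neighbours changed places among samples. Ocstamp followed with 1.29 ± 0.59 TPM and Calcr, the calcitonin receptor, was the lowest member with 0.57 ± 0.22 TPM in WT, at percentile 7.91 of the tested genes. Markers of the osteoclast outside the members were also present, with Mmp9 (gelatinase B) at 523 ± 161 CPM, Itgb3 (the beta chain of the osteoclast's vitronectin receptor) at 254 ± 17.9 CPM and Siglec15, a receptor of late differentiation, at 1.79 ± 0.59 CPM in WT. The label of these genes as an osteoclast set therefore had its defining markers above the floor in every sample, the lowest count being 57, for Calcr in WT replicate 1.

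No member passed the adjusted threshold of 0.05 between the genotypes. The edgeR test called 0 of the 10 members and 0.0% of all tested genes, DESeq2 called 0 of 10 against 1.79% of all genes, and an unadjusted P under 0.05 was found for 1 member, Tnfsf11, against 10.0% of all genes. In TMM-normalized CPM the groups did not overlap for 1 member, Tnfrsf11b, against 13.6% of all genes. Both counts, 1 of 10 members, were at or below the share of the background. By sign, 6 members were lower and 4 higher in Trpc1-/- samples. The median logFC of the members was -0.11, against -0.0088 over all tested genes. Without WT replicate 1, 0 members were called by either tool and Tnfsf11 was again the only member with an unadjusted P under 0.05. Over all 16242 genes tested there, 2748 had such a P in edgeR, which called 52, and DESeq2 called 892.

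**Figure D1:**
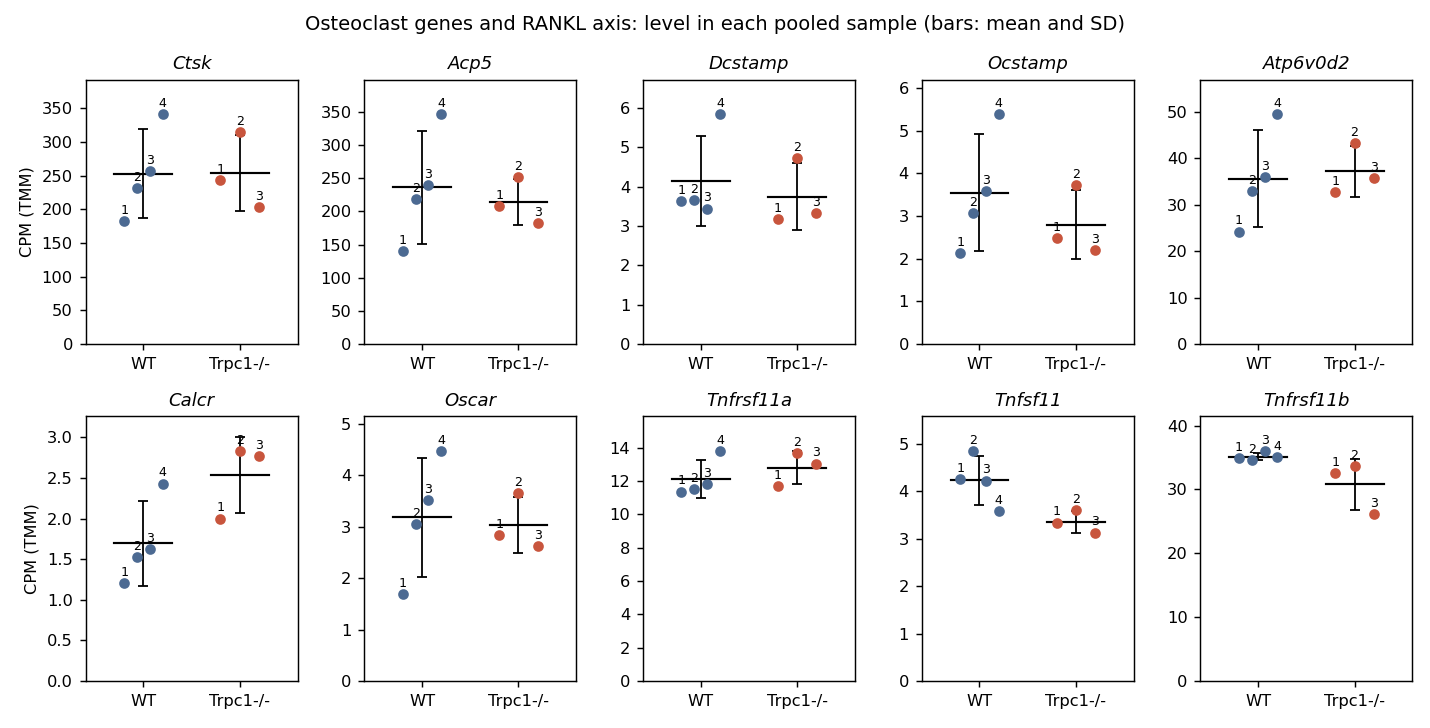
Level of each of the 10 genes in CPM (TMM-normalized, y axes from 0) in the 4 WT (blue) and 3 Trpc1-/- (red) samples, with the replicate number at each point and bars for the mean and SD. The groups overlap in every panel but that of Tnfrsf11b, where the 3 Trpc1-/- samples lie at 26.2 to 33.6 CPM and the WT samples at 34.6 to 36.0 CPM.

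The enzymes of bone resorption did not separate by genotype. Ctsk (ENSMUSG00000028111, chr3:95499256-95509362, GRCm38) was measured at 183, 232, 256 and 341 CPM in WT replicates 1 to 4. The 3 Trpc1-/- samples had 244, 315 and 203 CPM. These values lay inside the WT range, and the logFC was 0.0055 (SE 0.23, adjusted P = 0.994, edgeR), with a 95% interval of the fold from 0.694 to 1.45. Acp5 (ENSMUSG00000001348, chr9:22126727-22135711) had 140.2, 219, 239 and 346 CPM in WT and 207, 252 and 183 CPM in Trpc1-/- samples, again all within the WT range. Its logFC was -0.14 (SE 0.28, adjusted P = 0.861), with an interval of the fold from 0.580 to 1.42. A gene annotated on the opposite strand at Acp5, 6530413G14Rik, averaged 0.137 CPM. For both enzymes the spread among WT pools was wider than any difference between the genotype means.

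The genes of precursor fusion behaved alike. Dcstamp, the dendritic cell-specific transmembrane protein required for fusion (ENSMUSG00000022303, chr15:39745930-39760938), had 3.63, 3.66, 3.44 and 5.84 CPM in WT and 3.18, 4.73 and 3.32 CPM in Trpc1-/- samples. A single WT pool, replicate 4, stood above the rest. The logFC was -0.15 (SE 0.24, adjusted P = 0.834). Ocstamp, its osteoclast-specific partner in fusion (ENSMUSG00000027670, chr2:165393760-165400405), had 2.13, 3.07, 3.58 and 5.38 CPM in WT and 2.47, 3.72 and 2.20 CPM in Trpc1-/- samples, a logFC of -0.35 (SE 0.33, adjusted P = 0.704). The mean for Ocstamp was lower in Trpc1-/- samples (2.80 ± 0.81 against 3.54 ± 1.37 CPM), yet its 3 values fell within the WT range. Atp6v0d2 (ENSMUSG00000028238, chr4:19876841-19922605) had 24.2, 32.9, 35.9 and 49.5 CPM in WT and 32.7, 43.3 and 35.7 CPM in Trpc1-/- samples, with a logFC of 0.06 (SE 0.22, adjusted P = 0.926). The logFC of Ocstamp was lowest, at -0.61, with Trpc1-/- replicate 2 left out and nearest to 0, at -0.07, with WT replicate 4 left out. Without WT replicate 1 it was -0.52 (adjusted P = 0.378), and that of Atp6v0d2 was -0.08 (adjusted P = 0.837).

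Both surface receptors of the osteoclast were low. Oscar, an immunoglobulin-like receptor that binds collagen and co-stimulates RANK signalling (ENSMUSG00000054594, chr7:3609813-3616157), had 1.69, 3.06, 3.52 and 4.48 CPM in WT and 2.84, 3.66 and 2.62 CPM in Trpc1-/- samples. Its groups overlapped throughout, with a logFC of -0.07 (SE 0.31, adjusted P = 0.938). Calcr (ENSMUSG00000023964, chr6:3685680-3764714), through which calcitonin halts resorption, had 1.201, 1.52, 1.62 and 2.43 CPM in WT and 2.00, 2.83 and 2.77 CPM in Trpc1-/- samples, from 57 to 271 counts a sample. The microRNA genes Mir489 and Mir653, on the same strand within it, averaged 0.0045 and 0 CPM. Of the 3 Trpc1-/- samples 2 exceeded every WT sample, and the third was exceeded by WT replicate 4 only. The logFC of Calcr, 0.58 (SE 0.26), had the largest size among the members but did not pass the threshold (adjusted P = 0.509 in edgeR and 0.375 in DESeq2), and the interval of the fold ran from 0.978 to 2.28. Across each sample left out in turn it stayed between 0.45 and 0.80.

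The ligand RANKL was lower in Trpc1-/- samples by the unadjusted test only. Tnfsf11 (ENSMUSG00000022015, chr14:78277445-78308043) had 4.26, 4.85, 4.22 and 3.59 CPM in WT and 3.34, 3.60 and 3.13 CPM in Trpc1-/- samples. All 3 Trpc1-/- values lay below those of WT replicates 1 to 3, while WT replicate 4 had the level of Trpc1-/- replicate 2. The logFC was -0.33 (SE 0.14, unadjusted P = 0.0483, adjusted P = 0.499, edgeR; adjusted P = 0.328, DESeq2), which is a fold of 0.793 with an interval from 0.630 to 0.998. Leaving out each sample in turn moved the logFC between -0.41 and -0.26. The unadjusted P lay above 0.05 without WT replicate 2 or 3 or without Trpc1-/- replicate 1, 2 or 3.

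The decoy receptor and the receptor of RANKL differed in spread. Tnfrsf11b (ENSMUSG00000063727, chr15:54250619-54278484) had 34.9, 34.6, 36.0 and 35.0 CPM in WT, the narrowest WT group of any member relative to its mean, and 32.5, 33.6 and 26.2 CPM in Trpc1-/- samples. Every Trpc1-/- sample lay below every WT sample, although 2 of the 3 did so by a small margin and Trpc1-/- replicate 3 stood apart. The logFC was -0.19 (SE 0.09, unadjusted P = 0.0781, adjusted P = 0.528), with an interval of the fold from 0.753 to 1.02. Without Trpc1-/- replicate 3 the logFC was -0.09 (adjusted P = 0.932). Tnfrsf11a (ENSMUSG00000026321, chr1:105780718-105847981), the receptor on precursors, had 11.4, 11.5, 11.8 and 13.8 CPM in WT and 11.7, 13.7 and 13.05 CPM in Trpc1-/- samples. It overlapped between the genotypes, with a logFC of 0.08 (SE 0.10, adjusted P = 0.780) and an interval of the fold from 0.898 to 1.24.

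Since RANKL and osteoprotegerin act on each other, their ratio was also taken within each sample. Tnfsf11 counts were 12.2%, 14.0%, 11.7% and 10.2% of Tnfrsf11b counts in WT and 10.3%, 10.7% and 12.0% in Trpc1-/- samples. The groups overlapped, and the mean was 12.0 ± 1.56% in WT (n = 4) and 10.97 ± 0.88% in Trpc1-/- samples (n = 3). On the log2 scale the ratio was -3.06 ± 0.19 in WT and -3.19 ± 0.11 in Trpc1-/- samples, a difference of -0.13 that was smaller than the SD among WT samples. With each sample left out it ranged from -0.20 (without WT replicate 4) to -0.05 (without WT replicate 2). Per length of transcript, RANKL amounted to 15.2 ± 1.97% of osteoprotegerin in WT and 13.8 ± 1.11% in Trpc1-/- samples. No P value is given for the ratio, since it was chosen with the levels of both genes known.

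**Figure D2:**
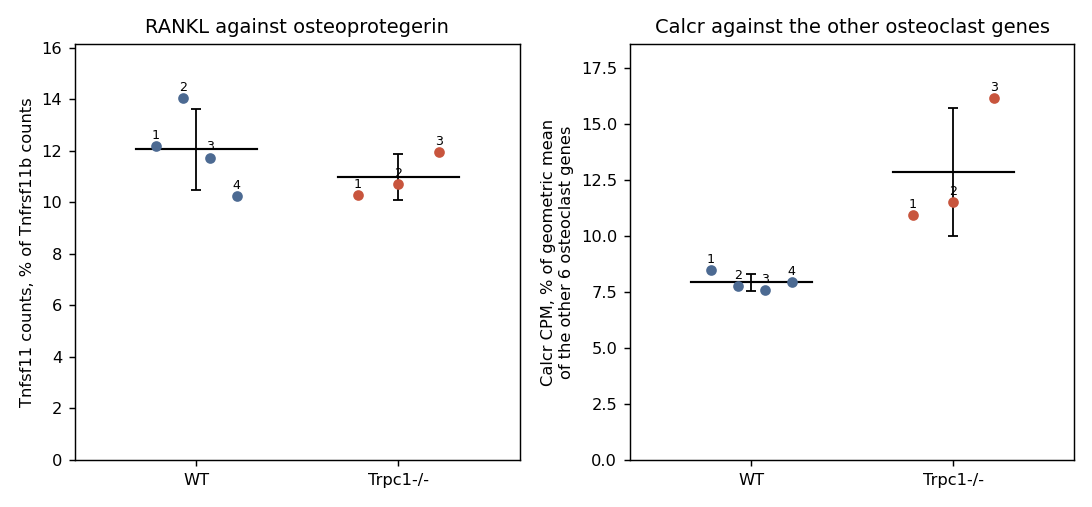
Left, Tnfsf11 counts as a percentage of Tnfrsf11b counts in each sample. Right, Calcr CPM as a percentage of the geometric mean of the other 6 osteoclast genes in the same sample. Points carry the replicate number, bars give the mean and SD of the 4 WT and 3 Trpc1-/- samples, and y axes start at 0. The left panel overlaps (10.2% to 14.0% against 10.3% to 12.0%), whereas the right panel does not (7.58% to 8.48% against 10.96% to 16.2%).

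The osteoclast genes varied from pool to pool more than between the genotypes, and they varied in the same samples. WT replicate 4 had the highest level of 6 of the 7 genes and Trpc1-/- replicate 2 the second highest of 6. At the other end WT replicate 1 had the lowest level of 6 genes and Trpc1-/- replicate 3 the second lowest of 5. Averaged over the 7 genes, WT replicates 1 to 4 lay at 0.686, 0.939, 1.02 and 1.47 times the mean of all samples and Trpc1-/- replicates 1 to 3 at 0.917, 1.24 and 0.910 times, so that the WT group held both extremes. The coefficient of variation over the 7 samples was 22.3% to 35.5% for the osteoclast genes, against 8.54% for Tnfrsf11a, 9.97% for Tnfrsf11b, 15.8% for Tnfsf11 and a median of 13.8% for all tested genes. In tissue samples of this kind, fewer osteoclasts and less RNA of these genes per osteoclast cannot be told apart.

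**Figure D3:**
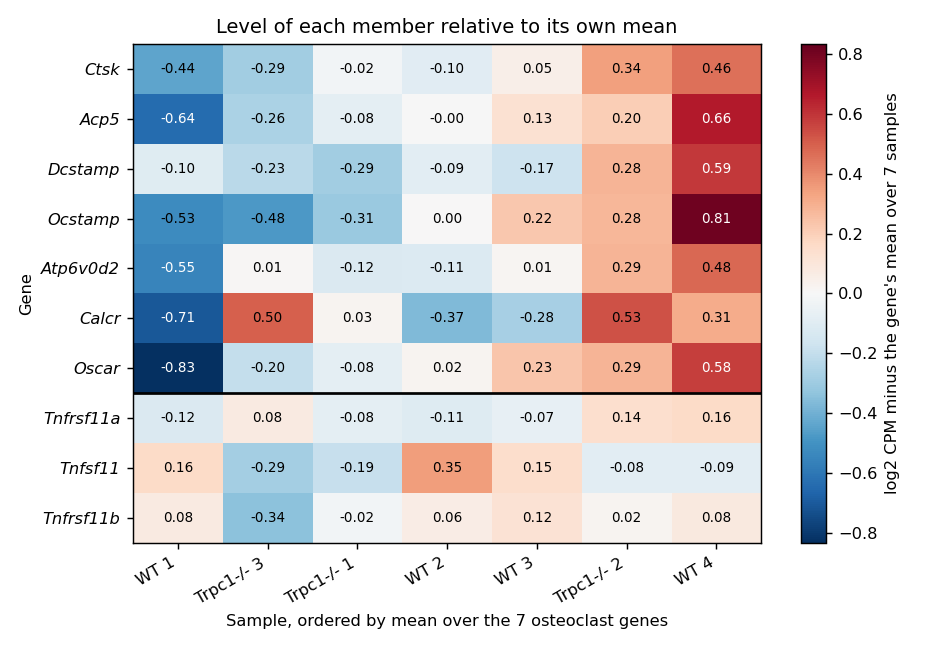
log2 CPM of each gene minus its own mean over the 7 samples (colour and number), with the samples ordered from left to right by their mean over the 7 osteoclast genes (rows above the line) and the RANKL axis below the line. WT replicate 1 is at the left end and WT replicate 4 at the right end, with the 3 Trpc1-/- samples between them, and the row of Calcr is the only osteoclast row whose highest value (0.53) is in a Trpc1-/- sample.

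Calcr departed from this shared order. Relative to the geometric mean of the other 6 osteoclast genes in the same sample, it stood at 8.48%, 7.75%, 7.58% and 7.94% in WT and at 10.96%, 11.5% and 16.2% in Trpc1-/- samples, which did not overlap. The difference was 0.68 on the log2 scale, from -3.66 ± 0.07 in WT to -2.98 ± 0.31 in Trpc1-/- samples, and it was 0.71 without WT replicate 1 and 0.50 without Trpc1-/- replicate 3. Ocstamp was the only other gene whose ratio to the remaining 6 did not overlap, being lower in Trpc1-/- samples by a log2 difference of -0.39 (-2.45 ± 0.12 in WT and -2.84 ± 0.18 in Trpc1-/- samples). These ratios were looked at after the levels had been seen, the 7 of them depend on each other, and they carry no test.

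Promoter sequence was read for the members in the RefSeq table (GRCm38.p6), which held 6 of the 10 (Ctsk, Acp5, Calcr, Oscar, Tnfrsf11a and Tnfsf11). The 250 bases before the start site are shown, 5′ to 3′ on the gene's strand, for a pair of genes that moved in the same samples (Ctsk and Oscar), for Calcr, which departed from them, and for the ligand. Capitals mark matches on either strand to GGAAA (the NFAT core), TGANTCA (AP-1), GAGGAA (PU.1, which can overlap the NFAT core) and CANGTG (an E-box).
Ctsk, chr3:95498960-95499209, plus strand: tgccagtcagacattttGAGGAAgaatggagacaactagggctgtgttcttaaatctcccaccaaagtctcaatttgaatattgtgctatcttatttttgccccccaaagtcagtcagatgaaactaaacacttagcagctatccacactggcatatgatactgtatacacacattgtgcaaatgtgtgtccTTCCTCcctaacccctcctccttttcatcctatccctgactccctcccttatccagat
Oscar, chr7:3616158-3616407, minus strand: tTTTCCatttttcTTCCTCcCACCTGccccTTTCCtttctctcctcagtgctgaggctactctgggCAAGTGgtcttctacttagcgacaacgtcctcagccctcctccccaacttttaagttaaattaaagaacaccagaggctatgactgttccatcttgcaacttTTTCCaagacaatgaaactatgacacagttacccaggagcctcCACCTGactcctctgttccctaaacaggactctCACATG
Calcr, chr6:3764714-3764963, minus strand: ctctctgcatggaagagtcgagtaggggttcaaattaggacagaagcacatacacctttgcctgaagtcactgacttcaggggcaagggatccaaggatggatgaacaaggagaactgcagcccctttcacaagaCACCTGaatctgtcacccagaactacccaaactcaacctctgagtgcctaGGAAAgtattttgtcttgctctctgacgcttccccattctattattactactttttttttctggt
Tnfsf11, chr14:78308044-78308293, minus strand: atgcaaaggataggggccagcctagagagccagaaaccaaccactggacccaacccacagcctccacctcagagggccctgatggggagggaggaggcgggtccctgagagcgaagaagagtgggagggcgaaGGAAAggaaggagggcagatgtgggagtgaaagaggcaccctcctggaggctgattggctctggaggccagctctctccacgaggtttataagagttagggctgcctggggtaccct
The Oscar window held 3 NFAT core, 1 PU.1 and 4 E-box matches, and that of Ctsk held 2 PU.1 matches and none of the other 3 motifs. Calcr held 1 NFAT core and 1 E-box match, and Tnfsf11 held 1 NFAT core match. Among all 32851 promoters of the same length, 55.6% held the NFAT core, 39.5% the E-box, 23.3% the PU.1 letters and 6.75% the AP-1 letters, so each but the last is common. For Calcr and Acp5, with 2 and 3 start sites in the table, the site nearest to the annotated gene start was taken. The windows also differed in base composition, from 43.2% G and C in Ctsk, 47.2% in Oscar and 46.0% in Calcr to 60.4% in Tnfsf11 and 73.6% in Tnfrsf11a, against a median of 52.4%. A match describes the letters only and is neither a binding site nor a cause of the levels above.

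Beyond the members, 4 lists of pathway genes were described, with 71 genes tested and a background of 10.0% for an unadjusted P under 0.05. In these lists 51 genes were lower and 20 higher in Trpc1-/- samples, edgeR called 0 by the adjusted P, and 9 (12.7%) had an unadjusted P under 0.05. Of the 25 genes of osteoclast lineage and RANK signalling, 17 were lower and 8 higher (median logFC -0.06), 2 of them at an unadjusted P under 0.05. Those were Csf1, the growth factor M-CSF that keeps precursors alive (45.7 ± 1.74 CPM in WT against 38.7 ± 3.61 CPM, logFC -0.24, adjusted P = 0.435), and Lgr4, a receptor that competes with RANK for RANKL (30.03 ± 1.81 against 24.2 ± 3.97 CPM, logFC -0.31, adjusted P = 0.456). Csf1 did not overlap between the groups. By contrast the receptor of M-CSF, Csf1r, had a logFC of 0.00068 with an interval from -0.29 to 0.29, the adaptor Traf6 had 0.04 (-0.12 to 0.21) and Nfatc1, the master transcription factor of the lineage, had -0.13 (-0.41 to 0.15).

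Among the 18 genes of the resorption machinery, 12 were lower and 6 higher (median logFC -0.08), and 4 had an unadjusted P under 0.05. Tcirg1, the osteoclast's proton pump subunit a3, lay at 104 ± 8.29 CPM in WT and 83.7 ± 5.74 CPM in Trpc1-/- samples, without overlap (logFC -0.32, SE 0.09, adjusted P = 0.407 in edgeR and 0.051 in DESeq2). Slc4a2, the anion exchanger that balances acid secretion, did not overlap either (53.6 ± 0.56 against 47.1 ± 3.27 CPM, logFC -0.19, adjusted P = 0.455). Mmp14, a membrane collagenase also made by stromal cells and chondrocytes, had a logFC of -0.32 (adjusted P = 0.482). Car2, carbonic anhydrase II, went the other way with 663 ± 157 CPM in WT and 960.0 ± 114 CPM in Trpc1-/- samples (logFC 0.54, adjusted P = 0.474), and this enzyme is also abundant in red cells, whose markers were higher in the same samples, and their part in its level was not tested. Mmp9 (logFC -0.13, -0.68 to 0.42), Itgb3 (-0.06, -0.35 to 0.23) and Siglec15 (-0.02, -0.77 to 0.74) overlapped between the groups. Without WT replicate 1, DESeq2 called Car2 (adjusted P = 0.00896) and Tcirg1 (adjusted P = 0.0158) and edgeR called neither. Over all genes DESeq2 then called 892 of 16242.

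Of 11 inhibitors of osteoclast formation, 8 were lower and 3 higher (median logFC -0.04) and 0 had an unadjusted P under 0.05. Irf8, a transcription factor that holds precursors back, had a logFC of -0.03 (-0.29 to 0.23). Among the 19 genes that induce RANKL or carry such signals, Il6 and Il17a were too low to be tested. The other 17 split into 14 lower and 3 higher (median logFC -0.13), 3 of them at an unadjusted P under 0.05. Vdr, the vitamin D receptor, had the lowest P, with 44.4, 34.3, 33.8 and 41.4 CPM in WT and 28.4, 25.5 and 21.2 CPM in Trpc1-/- samples. Every Trpc1-/- value was below every WT value, and the logFC of -0.62 (SE 0.14) passed the threshold in DESeq2 (adjusted P = 0.0128) but not in edgeR (adjusted P = 0.395). Lifr, the receptor of leukemia inhibitory factor (logFC -0.36, adjusted P = 0.426), and Pth1r, the parathyroid hormone receptor (logFC -0.33, adjusted P = 0.474), passed the unadjusted test but neither adjusted threshold with all 7 samples. Without WT replicate 1 DESeq2 called Vdr (adjusted P = 0.00237), Lifr (adjusted P = 0.0379) and Ptgs2 in this list, against 892 of 16242 genes in all, and edgeR called 0 in the list.

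**Figure D4:**
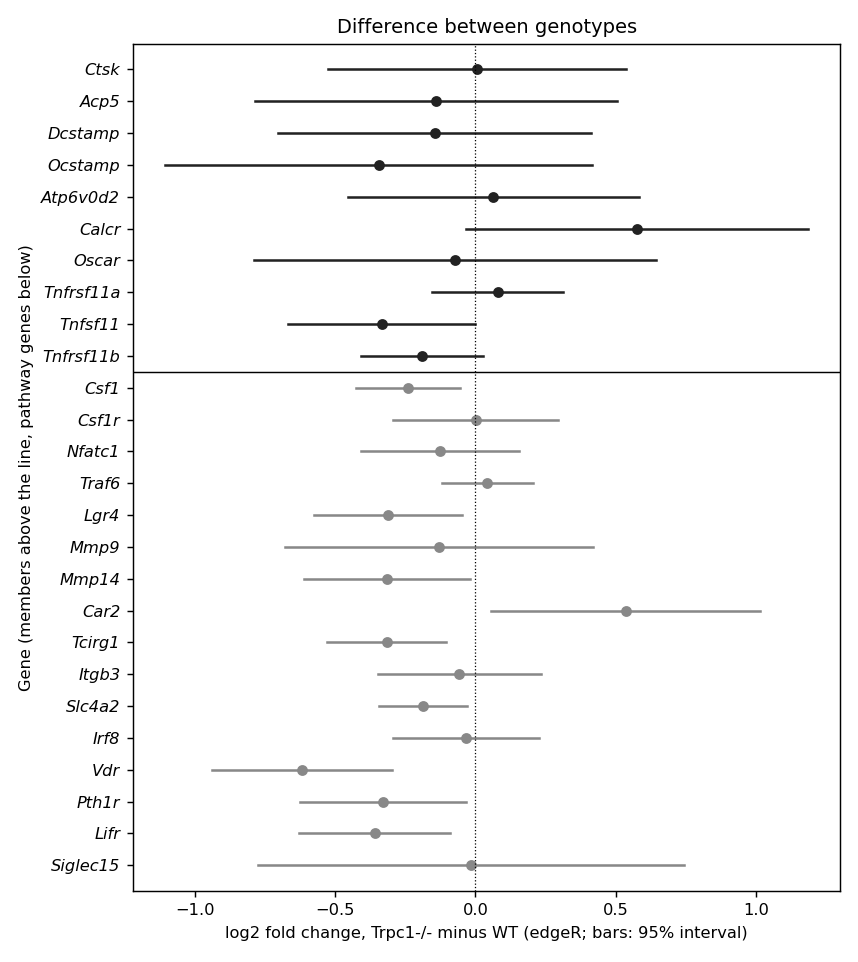
logFC of Trpc1-/- against WT with its 95% interval (edgeR, 4 WT and 3 Trpc1-/- samples) for the 10 members (above the line) and the pathway genes named in the text (below the line). The interval of 9 members includes 0 and that of Tnfsf11 ends at -0.0032, while Vdr (-0.62) and Calcr (0.58) have the largest estimates in either direction.

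Cell-type markers moved between the samples beside the osteoclast genes. Red-cell markers were higher in Trpc1-/- samples for 11 of 11 genes with a row, 9 of them at an unadjusted P under 0.05, with summed levels of 15446 to 28919 CPM in WT and 33501 to 45675 CPM in Trpc1-/- samples. Chondrocyte markers were lower for 11 of 11 genes (1 at an unadjusted P under 0.05), with sums of 5951 to 6588 CPM in WT and 3472 to 6465 CPM in Trpc1-/- samples. With WT replicate 1 left out, 7 of the 11 had an unadjusted P under 0.05, and DESeq2 called 5 (Comp, Matn3, Hapln1, Cnmd and Ihh) and edgeR 0. Over all 16242 genes tested in those 6 samples, 2748 had such a P in edgeR, which called 52, and DESeq2 called 892. Osteoblast markers were lower for 8 of 8 (1 at an unadjusted P under 0.05), and their sums overlapped, at 7691 to 13824 CPM and 6029 to 10409 CPM. In the same 6 samples 3 of the 8 had an unadjusted P under 0.05, and DESeq2 called 3 (Bglap2, Alpl and Smpd3) and edgeR 0. Osteoblast-lineage cells and chondrocytes are the usual sources of RANKL and osteoprotegerin, and the part of their markers in the levels of Tnfsf11 and Tnfrsf11b was not tested. Osteocyte markers were lower for 5 of 5 tested genes (2 at an unadjusted P under 0.05), among them Sost, which encodes sclerostin, at 36.1 ± 6.75 CPM in WT and 21.6 ± 1.88 CPM in Trpc1-/- samples (logFC -0.75, adjusted P = 0.381 in edgeR and 0.0033 in DESeq2). In the 6 samples other than WT replicate 1 edgeR called Sost (adjusted P = 0.0208) and Mepe, and DESeq2 called Sost, Mepe and Phex.

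Blood and marrow lists showed where WT replicate 1 stood. Macrophage and monocyte markers, the lineage from which osteoclasts derive, were higher in Trpc1-/- samples for 8 of 11 genes (1 at an unadjusted P under 0.05), and their sums were 540 CPM in WT replicate 1, 959 to 1028 CPM in the other WT samples and 894 to 1030 CPM in Trpc1-/- samples. Without WT replicate 1 the median logFC of this list changed from 0.20 to 0.04. Marker sums for T cells were 16.3 to 28.0 CPM in WT and 27.4 to 28.6 CPM in Trpc1-/- samples (6 of 6 genes higher, 2 at an unadjusted P under 0.05), those for B cells 247 to 290 and 276 to 343 CPM (6 of 7 higher, 0 at that P), and those for marrow stroma 880 to 946 and 961 to 1003 CPM (5 of 7 higher, 2 of these and 1 lower gene at that P). By mean log2 CPM, WT replicate 1 was the lowest sample for osteoclast, macrophage, osteocyte, B cell, T cell and red-cell markers, although by summed CPM of osteocyte markers Trpc1-/- replicates 1 and 3 (207 and 209.6 CPM) lay below it (259 CPM). The osteocyte mean includes Fgf23, which was too low to be tested. The genotype difference of that mean moved from -0.17 to -0.25 with a prior count of 5 in place of 1. WT replicate 4, the highest for the osteoclast genes, was also the highest for chondrocyte markers, and was not the highest in the other 5 lists named here. The part of these differences in the osteoclast levels was not tested.

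**Figure D5:**
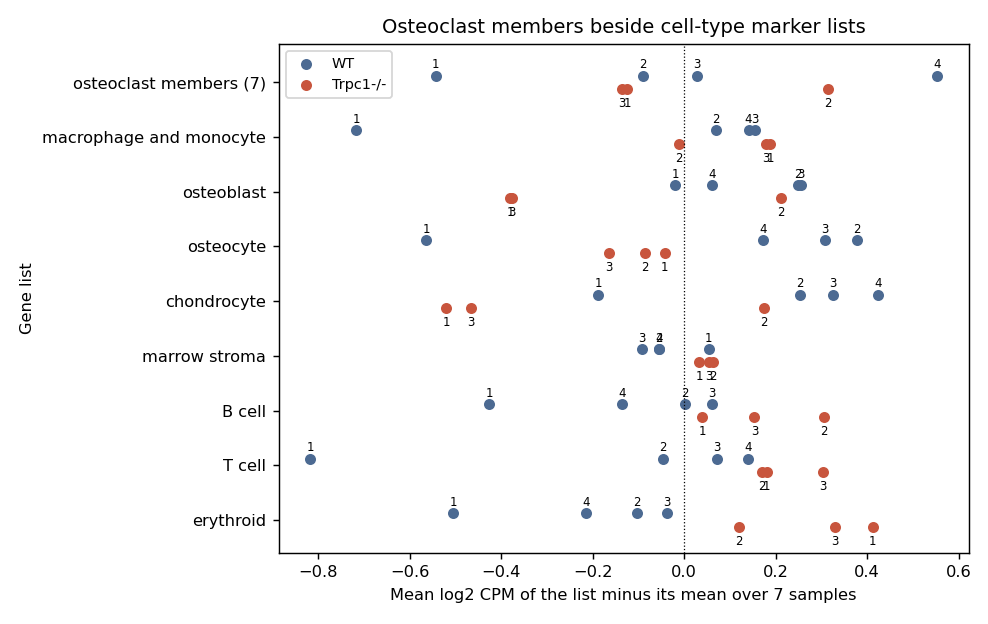
Mean log2 CPM of the 7 osteoclast genes and of each cell-type marker list, minus the mean of the list over the 7 samples, with WT in blue, Trpc1-/- in red and the replicate number at each point. For the osteoclast genes WT replicate 1 (-0.54) and WT replicate 4 (0.55) enclose the 3 Trpc1-/- samples (-0.14 to 0.32), whereas for the red-cell list all Trpc1-/- samples lie above all WT samples.

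The genes whose levels followed the 7 osteoclast genes most closely were taken from all tested genes, by Pearson correlation over the 7 samples with the mean of the standardized log2 CPM of the 7. First came Slc37a2, a sugar-phosphate transporter of macrophages and osteoclasts (r = 0.993, Spearman rho = 1.00), with 39.8, 53.6, 57.1 and 75.4 CPM in WT and 52.1, 64.2 and 51.99 CPM in Trpc1-/- samples. Next were Gm20939 (r = 0.976), Zfp335os (0.972), Tln1 (talin, which links integrins to the cytoskeleton, 0.968), Bdh1 (0.967), Tmem127 (0.962), Eva1a (0.962), Ighv1-76 (0.956), Gm26510 (0.949) and Ikzf2 (0.949). None of the 10 is in the pathway lists, and their logFC lay between -0.04 and 0.31. In the same ranking of 16422 genes, Atp6v1b2 stood at place 19, Siglec15 at 21, Mmp9 at 22 and Traf6 at 23. Other genes of the osteoclast stood far lower. Itgb3 was at place 2675 (r = 0.54), Tcirg1 at 5383 (r = 0.35), Car2 at 5855 (r = 0.31) and Nfatc1 at 8608 (r = -0.02). Of the axis, Tnfrsf11a stood at 261 (r = 0.805), Tnfrsf11b at 6980 (r = 0.184) and Tnfsf11 at 11063 (r = -0.26). With 7 points, and depth and tissue composition shared among them, these correlations are a description only.

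The mouse numbers in the labels run in the 1300s for WT replicates 1 and 2 and the 3 Trpc1-/- samples and in the 1700s for WT replicates 3 and 4, and the labels do not say what the series stand for. Within the 1300s, 8 members were higher and 2 lower, with a logFC of 0.29 for Ctsk, 0.25 for Acp5, 0.38 for Atp6v0d2, 0.89 for Calcr, 0.16 for Tnfrsf11a, -0.44 for Tnfsf11 and -0.18 for Tnfrsf11b, and edgeR called 0 of them (lowest adjusted P = 0.373). Calcr and Tnfrsf11a were higher, and Tnfsf11 and Tnfrsf11b lower, without overlap among these 5 samples. The log2 ratio of Tnfsf11 to Tnfrsf11b differed by -0.26 there, also without overlap (12.2% and 14.0% in WT against 10.3%, 10.7% and 12.0%). The share of all genes without overlap was not taken in these 5 samples, and groups separate more easily when samples are fewer. The 1700s held samples of WT only and gave no comparison. The logFC of Calcr, Tnfrsf11a, Tnfsf11 and Tnfrsf11b kept its sign in all 20 alternative fits, while each of the other 6 members changed sign in some.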

How the data were processed

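RNA of 4 WT and 3 Trpc1-/- pools was sequenced from ribosome-depleted stranded libraries. Per the study's methods and the submitters' processing notes, reads were trimmed with cutadapt 2.5, aligned to GRCm38 with HISAT2 2.1.0 and assembled with StringTie 2.0.3. The table the authors deposited holds 1 estimated count for each of 55401 genes in each of 7 samples, computed from StringTie's coverage, in whole numbers and without normalization. How reads shared by several genes were assigned is fixed before this point. The labels gave the groups (the Methods state 3 WT and 4 Trpc1-/- samples). Nothing says that pools of a group came from separate litters or days, so P values measure the spread between these pools only.

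The filter kept every gene above 1 CPM in 2 or more samples. Counts were scaled by TMM and compared in edgeR 4.0.16 under R 4.3.3 (quasi-likelihood, genotype alone, threshold 0.05) and, as alternatives, DESeq2 1.42.0 and limma-voom (limma 3.58.1), on scripts tested on simulated data first. Log2 CPM used a prior count of 1, and TPM used exon lengths from GENCODE M21. A floor of 3 counts corresponded to 0.0244 to 0.0632 CPM and covers counting error only. Other alternatives were 3 normalizations, 2 filters, the replicate block (fitted without WT replicate 4), the mouse number series and each sample left out.

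The members and lists were chosen with earlier results of these data known. Genes named are the 10 members, pathway genes with an unadjusted P under 0.05 in edgeR or an adjusted P under 0.05 in DESeq2, 7 pathway genes whatever their values (Csf1, Csf1r, Nfatc1, Traf6, Mmp9, Itgb3 and Irf8), the 10 genes most like the osteoclast members, and Trpc1. Other named genes (Siglec15, Sost, Atp6v1b2, and those of the closing section) were picked after their values were seen. Of 12 red-cell markers Ahsp was not analysed here. Promoters came from RefSeq (GRCm38.p6).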

Additional observations from a re-analysis of the deposited data

Results flagged for a closer look

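In 41 levels and ratios examined in the WT group, 3 had a sample whose gap to its nearest neighbour took up most of the range of the group (Dixon's ratio above its 95% critical value for 4 samples), and chance flags about 1 in 20 groups. Dcstamp had a ratio of 0.9093, with WT replicate 4 at 5.84 CPM above 3.44 to 3.66 CPM in the others. The macrophage and monocyte marker list had a ratio of 0.9022, with WT replicate 1 at a mean log2 CPM of 4.94 below 5.73 to 5.81 in the others. Acp5 relative to the other 6 osteoclast genes had a ratio of 0.9223, with WT replicate 1 at 4.45 on the log2 scale below 4.67 to 4.69 in the others. The Trpc1-/- group has 3 samples and was not examined in this way.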

How the results depend on the processing

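No member passed the adjusted threshold in edgeR, DESeq2 or limma-voom under any of the 20 alternative fits. Depth was lowest for Calcr (57 counts in WT replicate 1). Among all genes edgeR called 52 without WT replicate 1 and DESeq2 37 to 892 with each sample left out. The number of members with an unadjusted P under 0.05 was 1, was 0 with RLE normalization and with filterByExpr, was 2 with limma-voom, with DESeq2, with the mouse number series as a covariate (edgeR and DESeq2) and within the 1300s (both tools), and ranged from 0 to 2 with each sample left out. Of all 16429 genes, 1643 had such a P in the main fit, 1673 in limma-voom and 2074 in DESeq2. With the covariate 2899 had it in edgeR and 3356 in DESeq2. Within the 1300s these were 2156 and 2652 of 16203 genes. Members whose groups did not overlap numbered 1, numbered 4 within the 1300s (Calcr, Tnfrsf11a, Tnfsf11 and Tnfrsf11b), and ranged from 1 to 3 with each sample left out. The share of 13.6% over all genes holds for all 7 samples. It was not taken for the smaller sets, in which groups separate more easily, so their counts have no background. Of the 10 genes most like the osteoclast genes, 3 were among the first 10 by Spearman correlation and 1 to 7 with each sample left out.

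The log2 fold change of Ctsk, near 0, became -0.0028 with upper-quartile and -0.0594 with total-count scaling, and that of Atp6v0d2 became -0.0106 with the latter. With the mouse number series as a covariate, the values in edgeR and DESeq2 turned to 0.2527 and 0.2547 for Acp5, 0.0388 and 0.0397 for Dcstamp, 0.0945 and 0.0958 for Ocstamp, and 0.3439 and 0.3437 for Oscar. Within the 1300s they were 0.2517 and 0.2557 for Acp5, 0.0378 and 0.0402 for Dcstamp, 0.0949 and 0.0973 for Ocstamp, and 0.3448 and 0.3475 for Oscar. With each sample left out, the range was -0.1848 to 0.1828 for Ctsk, -0.3251 to 0.1015 for Acp5, -0.3543 to 0.0655 for Dcstamp, -0.0821 to 0.262 for Atp6v0d2 and -0.277 to 0.1312 for Oscar. For these 5 genes the sign turned without WT replicate 4 (Acp5, Dcstamp and Oscar), without WT replicate 1 or Trpc1-/- replicate 2 (Ctsk and Atp6v0d2), without WT replicate 2 (Ctsk) or without Trpc1-/- replicate 3 (Oscar). The cause was not tested.

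The labels number replicates 1 to 3 in both groups, but the deviations of same-numbered samples did not move together (correlations of -0.35, -0.20 and -0.04). Other pairs ranged from -0.33 to 0.36. With 3 pairs, and deviations taken within each group, these values cannot show whether same-numbered samples share more than a number. With the replicate block the values in edgeR and DESeq2 were 0.1272 and 0.13 for Acp5, 0.0451 and 0.0488 for Dcstamp, and 0.1878 and 0.1899 for Oscar, and Calcr alone among the members passed 0.05 unadjusted. Over all genes the calls of DESeq2 went from 294 to 53 with the block.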

Other observations

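Col10a1, the collagen of hypertrophic chondrocytes, had 337, 578, 636 and 1070 CPM in WT replicates 1 to 4 and 349, 546 and 357 CPM in Trpc1-/- replicates 1 to 3. WT replicate 4 was the highest and WT replicate 1 the lowest, as for Ctsk and Acp5, and the 3 Trpc1-/- samples lay below WT replicates 2 to 4. Its Pearson correlation with the mean of the 7 osteoclast genes over the 7 samples was 0.846 (place 136 of 16422), that of Ihh, the hedgehog ligand of prehypertrophic chondrocytes, was 0.835 (place 166) and that of Cnmd (chondromodulin) was 0.757 (place 458). The rest of the chondrocyte list ran from Hapln1 (0.747, place 512) down to Sox9 (-0.37, place 12438). Between them, Col2a1 was at 0.14 (place 7358) and Comp at -0.03 (place 8693). The logFC of Col10a1 was -0.65 with an interval from -1.51 to 0.20 (adjusted P = 0.557, edgeR). Col10a1, Ihh and Cnmd were picked after their values were seen, and the correlations over 7 samples are descriptions.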
